A study of Homo sapiens with 36 samples.

Results

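The E2F transcription factor family was examined through every probe set that the annotation of the array assigned to E2F1, E2F2, E2F3, E2F4, E2F5, E2F6 or E2F8 and to no other gene. These were 11 probe sets for 7 genes, out of 22215 probe sets tested. All cells were U2OS ER-HA-E2F1, a human osteosarcoma line that was infected with a retrovirus for a chimera of the estrogen receptor hormone-binding domain, an HA tag and E2F1, and then selected with puromycin; 4-hydroxytamoxifen (OHT) moves the chimera into the nucleus. Each culture received 1 of 4 siRNAs: a negative control from Dharmacon or from Sigma-Aldrich, or an siRNA to NFYB from Ambion or from Dharmacon; NFYB is a subunit of the CCAAT-binding complex NF-Y. At 18 h after transfection the cells were starved of serum for 24 h, and RNA was taken at 0, 4 or 8 h of 80 nM OHT, with 3 biological replicates for each of the 12 conditions (36 arrays). Every control carried the transgene too, and every array at 4 or 8 h came from cells given OHT, so that activation of E2F1, OHT itself and further hours of starvation cannot be told apart. An E2F1 probe set may read the transcript of the chimera as well as that of the endogenous gene, and the 2 sources cannot be told apart here.

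E2F proteins bind DNA near the start sites of genes for cell cycle entry, most of them together with a DP partner. E2F1, E2F2 and E2F3 are the activators of the family and are held in check by the retinoblastoma protein. E2F4 and E2F5 work mainly as repressors with the pocket proteins RBL1 and RBL2, E2F6 represses without a pocket protein and associates with polycomb proteins, and E2F8 is an atypical member that binds DNA without DP and represses targets of the activators.

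Because the study combined E2F1 activation with loss of a CCAAT-binding subunit, the 250 bases before the start site of the members were searched for both kinds of element. The sequences are from RefSeq on GRCh38.p14, which gave a window for E2F1, E2F2, E2F3, E2F4 and E2F6. An E2F site was counted as TTTCCCGC, TTTGGCGC, TTTCGCGC or TTTGCCGC on either strand, and a CCAAT box as CCAAT on either strand. The windows of the activators are shown because each of them held an E2F site. In the lines below, capitals mark E2F sites and CCAAT boxes, and everything is written 5′ to 3′ on the strand of the gene.
E2F1 (chr20:33686386-33686635, minus strand): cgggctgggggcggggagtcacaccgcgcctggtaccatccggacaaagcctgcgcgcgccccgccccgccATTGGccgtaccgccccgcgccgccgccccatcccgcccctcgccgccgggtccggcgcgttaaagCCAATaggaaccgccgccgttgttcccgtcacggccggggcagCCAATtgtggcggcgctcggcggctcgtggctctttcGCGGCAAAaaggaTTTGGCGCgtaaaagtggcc
E2F2 (chr1:23531234-23531483, minus strand): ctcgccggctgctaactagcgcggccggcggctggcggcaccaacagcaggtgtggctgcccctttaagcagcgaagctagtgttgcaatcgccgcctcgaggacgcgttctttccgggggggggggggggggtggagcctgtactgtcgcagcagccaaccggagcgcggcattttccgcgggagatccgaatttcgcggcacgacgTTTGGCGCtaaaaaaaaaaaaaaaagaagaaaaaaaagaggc
E2F3 (chr6:20401629-20401878, plus strand): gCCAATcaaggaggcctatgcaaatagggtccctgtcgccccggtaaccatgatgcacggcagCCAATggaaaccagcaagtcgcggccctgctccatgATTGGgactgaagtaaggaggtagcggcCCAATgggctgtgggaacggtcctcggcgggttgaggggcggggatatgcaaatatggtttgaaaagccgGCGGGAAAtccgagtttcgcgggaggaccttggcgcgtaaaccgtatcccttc
The E2F1 window held 2 E2F sites, whose first bases lie 33 and 20 bases before the start site, and 3 CCAAT boxes. The E2F2 window held 1 E2F site, 42 bases before the start, and no CCAAT box in the letters searched. The E2F3 window held 1 E2F site, 53 bases before the start, and 4 CCAAT boxes. A second E2F3 start (window chr6:20403364-20403613) and the windows of E2F4 (chr16:67191905-67192154) and E2F6 (chr2:11466162-11466411) held neither element. Among 35116 windows of the same length, 2.79% held an E2F site and 32% held a CCAAT box. These matches describe the letters only.

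Signals are the authors' MAS5 values on a linear scale, and tests were run on their log2 values with limma across all 22215 probe sets. A probe set was called at an adjusted p under 0.05, and "rose" and "fell" are used for called probe sets. The median signal over all probe sets and arrays was 111, and of the 11 E2F probe sets only the dimmer one for E2F5 (222051_s_at) lay outside the upper 60% of probe sets by mean log2 signal. NFYB, the target of the knockdown, was lower in all 6 arrays with an NFYB siRNA than in any of the 6 controls at each time, on each of its 3 probe sets; at 8 h the mean on 218127_at was 649 ± 59.5 with the control siRNAs and 127 ± 46.8 with the NFYB siRNAs (SD, n = 6 each). In the control cells its mean on this probe set was 187 at 0 h and 438 at 4 h. Of the markers checked, VIM, SPARC and COL1A1 of the mesenchymal and osteoblast list were bright (percentiles 99.5, 98.2 and 91.5 of all probe sets). ALPL of this list lay at percentile 47.8, and RUNX2 and COL1A2 were dim (21.9 and 25.9). Epithelial EPCAM lay at percentile 67.4, whereas the other measured epithelial, leukocyte and endothelial markers lay at or below 34.8.

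After OHT 2 members rose in every siRNA group, the activator E2F2 and the repressor E2F8, while changes of the other members were small or not called. In cells with the control siRNAs, 2 of the 11 E2F probe sets rose and none fell at 4 h, when 39.3% of all probe sets were called. At 8 h 3 rose and 1 fell (49.9% of all probe sets called). With the NFYB siRNAs 2 rose and none fell at 4 h (36.6% called), and 2 rose and 1 fell at 8 h (47.9% called). The share of E2F probe sets called was below that of the whole array at each time. The median log2 change of the 11 probe sets at 8 h was -0.09 with the control siRNAs and -0.21 with the NFYB siRNAs, beside -0.10 and -0.15 over all probe sets.

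**Figure D1:**
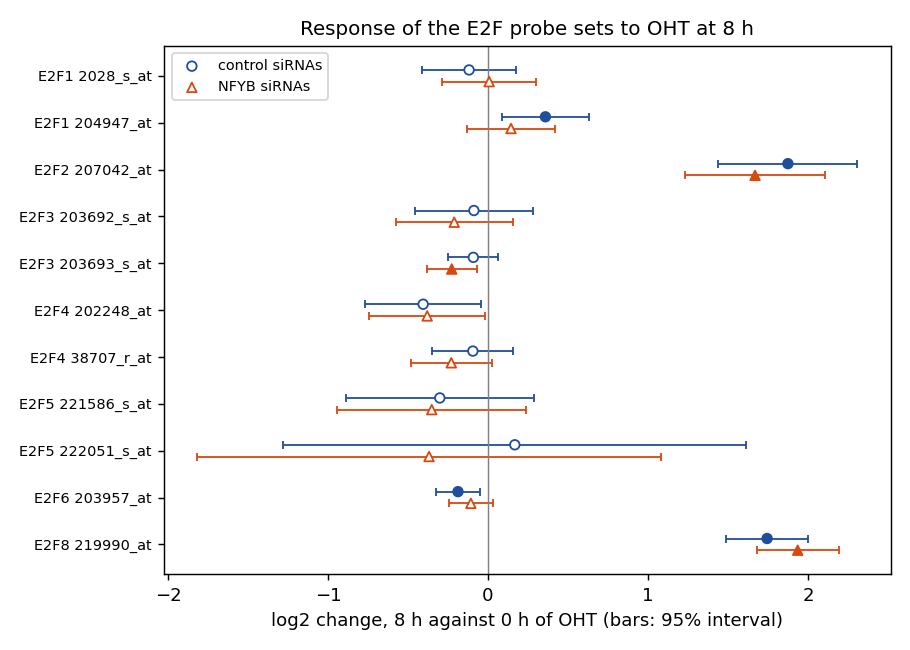
Log2 change of each E2F probe set between 0 and 8 h of OHT (x axis), for the control siRNAs (blue circles) and the NFYB siRNAs (orange triangles), 6 arrays per group and time; bars are 95% intervals and filled symbols are called. E2F2 and E2F8 stand apart with changes between 1.67 and 1.94, and all other changes lie between -0.41 and 0.36.

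E2F1, the activator that the chimera carries, showed a small rise on only 1 of its 2 probe sets. On 204947_at the lowest, median and highest signals of the 6 control arrays were 137, 195 and 219 at 0 h, 198, 225 and 322 at 4 h, and 199.9, 260.4 and 268 at 8 h. The ranges at 0 and 8 h overlapped, with 4 of the 6 arrays at 8 h above every array at 0 h. The probe set rose at 8 h by 0.36 on the log2 scale (SE 0.135, adjusted p = 0.0253), and at 4 h it differed by 0.31 without being called (adjusted p = 0.072). The lowest array at 0 h, Dharmacon control replicate 2, carried part of the 8 h value: without it the difference was 0.27 (adjusted p = 0.102), without Sigma control replicate 2 at 8 h it was 0.33 (adjusted p = 0.0546), and at 4 h leaving out Dharmacon control replicate 3 of that time gave 0.35 (adjusted p = 0.0464). With each control siRNA taken alone the 8 h difference was 0.38 (Dharmacon, adjusted p = 0.105) and 0.34 (Sigma, adjusted p = 0.126). The other E2F1 probe set, 2028_s_at, was not called, with differences of 0.12 at 4 h and -0.12 at 8 h. From 4 to 8 h it differed by -0.24 (adjusted p = 0.293), and 1 of 50 alternatives called this step. Its mean went from 194 to 154 with the Dharmacon control and from 277 to 251 with the Sigma control. With the Ambion and Dharmacon NFYB siRNAs it went from 285 to 247 and from 245 to 226. Fitted by siRNA, the 8 h difference of 2028_s_at was -0.28 with the Dharmacon control (adjusted p = 0.0457) and 0.04 with the Sigma control (adjusted p = 0.812). With the NFYB siRNAs neither E2F1 probe set was called, 204947_at differing by 0.14 at 8 h (95% interval -0.13 to 0.42) and 2028_s_at by 0.01. The log2 signals of the 2 probe sets correlated at r = 0.424 over the 36 arrays, as a description.

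The activator E2F2, measured by 1 probe set (207042_at), rose with OHT under each siRNA. Among the control arrays at 0 h the Dharmacon siRNA gave 23.2, 18.1 and 27.8 and the Sigma siRNA 35.6, 30.2 and 37.2. At 8 h the corresponding signals were 107, 119 and 91.3 with the Dharmacon siRNA and 89.5, 99.9 and 109 with the Sigma siRNA. The 2 times did not overlap, and E2F2 rose by 1.62 at 4 h (SE 0.215, adjusted p = 7.16e-08) and by 1.87 at 8 h (SE 0.215, adjusted p = 1.55e-09), which is 3.07-fold and 3.67-fold. With the NFYB siRNAs the Ambion siRNA gave 56.3, 49.9 and 36.5 at 0 h and 98.7, 114 and 97.8 at 8 h. The Dharmacon NFYB siRNA gave 26.1, 36.8 and 29.2 at 0 h and 168, 109 and 148 at 8 h. E2F2 rose by 1.31 at 4 h and by 1.67 at 8 h in these cells (SE 0.215 each, adjusted p = 4.38e-06 and 2.19e-08). Taken by siRNA, the 8 h change was 2.22 (Dharmacon control), 1.53 (Sigma control), 1.14 (Ambion NFYB) and 2.20 (Dharmacon NFYB) (SE 0.273 and called for each), so that siRNAs of one kind gave different sizes, a difference that was not tested. In the order of the 12 condition means, no pair of neighbours was separated beyond the ranges of their arrays, although 23 of the 24 arrays with OHT lay above all 12 arrays at 0 h. The signals of E2F2 at 0 h lay below the array median of 111.

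E2F3, the third activator, fell slightly by 8 h in cells with the NFYB siRNAs. On its brighter probe set, 203693_s_at, the Ambion siRNA gave 644, 592 and 553 at 0 h and 492, 534 and 512 at 8 h, and the Dharmacon siRNA gave 684, 673 and 785 at 0 h and 573, 645 and 597 at 8 h. Within each siRNA the 2 times did not overlap, and the probe set fell by 0.23 on the log2 scale (SE 0.0775, adjusted p = 0.0142). The call was lost without Dharmacon NFYB replicate 3 at 0 h, the brightest of these arrays (-0.17, adjusted p = 0.064), with quantile normalization (-0.17, adjusted p = 0.0737), with the methods' t-test (adjusted p = 0.0842), with only these groups in the fit (adjusted p = 0.0551), with the Ambion siRNA alone (adjusted p = 0.0612), and without the arrays numbered replicate 1 or 3 (adjusted p = 0.19 and 0.0819). With the control siRNAs the difference at 8 h was -0.09 (95% interval -0.25 to 0.07). Fitted by siRNA, 203693_s_at was higher at 4 h with the Sigma control by 0.21 (adjusted p = 0.0417) and differed by 0.01 with the Dharmacon control. The dimmer probe set, 203692_s_at, was not called in any comparison of groups and followed its partner weakly (r = 0.0744 over the 36 arrays). From 4 to 8 h its mean went from 195 to 111 with the Dharmacon control and from 136 to 160 with the Sigma control. Over both controls this step was -0.29 (adjusted p = 0.32), and 1 of 50 alternatives called it. RefSeq lists processed copies of E2F3, E2F4 and E2F6 as pseudogenes, and whether these probe sets also read them cannot be told apart.

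The repressors E2F4 and E2F5 were not called at either time in either arm. On the brighter E2F4 probe set, 38707_r_at, the lowest, median and highest control signals were 427, 544 and 656 at 0 h and 426, 491 and 623 at 8 h, which largely overlapped (difference -0.09, 95% interval -0.35 to 0.16). On 202248_at they were 119, 175 and 179.9 at 0 h and 91.8, 114 and 173 at 8 h, with 4 of the 6 later arrays below all earlier ones. That difference was -0.41 (adjusted p = 0.0574) and became called without Dharmacon control replicate 3 at 0 h or without Sigma control replicate 1 or 2 at 8 h (-0.51 to -0.49, adjusted p = 0.0182 to 0.0248). Fitted by siRNA it was -0.67 with the Dharmacon control (adjusted p = 0.0105) and -0.14 with the Sigma control (adjusted p = 0.67). In the NFYB arm it was -0.38 (adjusted p = 0.0792) and became called without Ambion replicate 1 at 8 h or Dharmacon replicate 3 at 0 h (-0.47 to -0.45, adjusted p = 0.035 to 0.0432); 38707_r_at differed there by -0.23 and became called without Dharmacon replicate 3 at 8 h (-0.31, adjusted p = 0.043). For E2F5, 221586_s_at ranged from 41.4 to 148 in the control arrays at 0 h and from 31.0 to 101 at 8 h, and the difference of -0.30 had a 95% interval of -0.89 to 0.29. Fitted by siRNA, 221586_s_at was lower at 4 h with the Sigma control by 0.86 on the log2 scale (adjusted p = 0.0274). The Sigma control arrays at 0 h were the brightest for this probe set. From 0 to 4 h its mean went from 88.4 to 56.8 with the Ambion NFYB siRNA and from 70.3 to 51.2 with the Dharmacon NFYB siRNA. With the Dharmacon control it went from 45.2 to 47.6. Over both NFYB siRNAs the 4 h difference was -0.59 (adjusted p = 0.117), and 1 of 50 alternatives called it. The other E2F5 probe set, 222051_s_at, never exceeded 23.7, and its interval at 8 h ran from -1.28 to 1.62, so that its level could not be followed. Its 4 h difference with the NFYB siRNAs was -1.58 (adjusted p = 0.0813), at signals of 0.545 to 10.5 in the 4 h arrays. This difference became called without Ambion replicate 1 at 0 h or replicate 1 or 3 at 4 h (-2.10 to -1.87, adjusted p = 0.0171 to 0.0472). In all, 5 of 49 alternatives called it. The 2 siRNAs went in opposite directions. Mean log2 signal went from 3.75 to 0.15 with the Dharmacon NFYB siRNA and from 2.69 to 3.11 with the Ambion NFYB siRNA.

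E2F6, the pocket-independent repressor, fell late in the control cells (203957_at). Its lowest, median and highest signals were 909, 1019 and 1128 at 0 h, 969, 1068 and 1103 at 4 h, and 854, 876 and 958 at 8 h. All 6 arrays at 8 h lay below all 6 at 4 h. Between 4 and 8 h, when 17.2% of all probe sets were called, 1 of the 11 E2F probe sets fell and none rose: E2F6 fell by 0.25 (SE 0.0688, adjusted p = 0.00801). With 3 arrays per time the step was -0.26 for the Dharmacon control alone (adjusted p = 0.0968) and -0.25 for the Sigma control alone (adjusted p = 0.105). These were among 5 of 50 alternatives in which the call of this step was lost. Against 0 h it fell by 0.19 at 8 h (adjusted p = 0.0218). Fitted by siRNA the 8 h difference was -0.27 with the Dharmacon control (adjusted p = 0.00452) and -0.10 with the Sigma control, which was not called (adjusted p = 0.306). The call over both controls was lost without Dharmacon control replicate 1 (-0.17, adjusted p = 0.0536) or replicate 3 (-0.15, adjusted p = 0.0699) at 0 h. In all, 6 of 50 alternatives lost this 8 h call, with adjusted p up to 0.433. With the NFYB siRNAs the 8 h difference was -0.11 (95% interval -0.25 to 0.03). The late step was also close to the threshold for E2F3 203693_s_at (-0.20, adjusted p = 0.065), which became called without Dharmacon control replicate 2 at 4 h, Dharmacon control replicate 3 at 8 h or Dharmacon NFYB replicate 3 at 0 h (-0.24 to -0.20, adjusted p = 0.0389 to 0.0485), and E2F4 202248_at (-0.41, adjusted p = 0.12) became called without Sigma control replicate 1 at 8 h (-0.51, adjusted p = 0.0475).

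**Figure D2:**
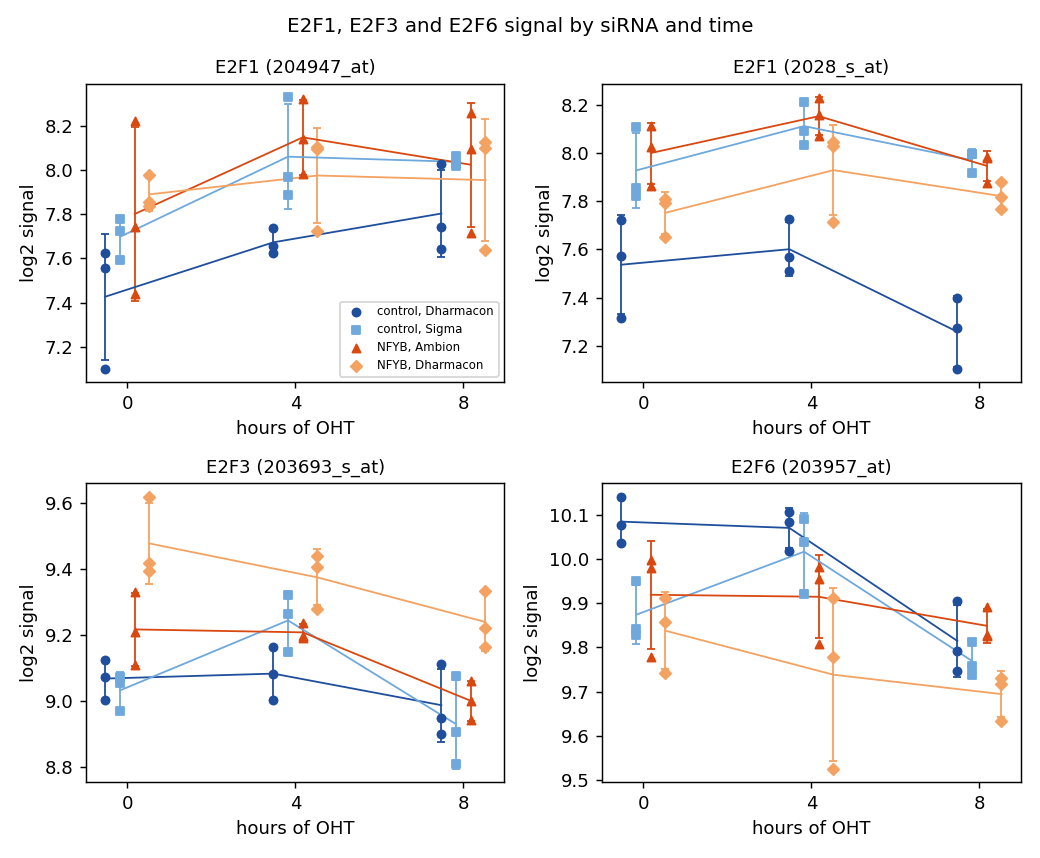
Log2 signal (y axis) against hours of OHT (x axis) for both E2F1 probe sets, E2F3 203693_s_at and E2F6, by siRNA; points are arrays (3 per siRNA and time, shifted sideways for legibility), lines join the means and bars are SD. On E2F1 2028_s_at the Dharmacon control arrays lie below all Sigma control arrays, and E2F6 at 8 h lies below 4 h in both control groups.

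E2F8, the atypical repressor, gave the clearest response of the family (219990_at). At 0 h the signals were 249, 325 and 332 with the Dharmacon control, 397, 393 and 347 with the Sigma control, 329.6, 312 and 366 with the Ambion NFYB siRNA and 236, 323 and 377 with the Dharmacon NFYB siRNA. At 4 h they were 1408, 1225 and 1057, then 1162, 1242 and 1196, then 1643, 1692 and 1383, and 1234, 1646 and 1098 in the same order of siRNAs. At 8 h they were 1092, 999 and 900.0, then 1462, 1246 and 1149, then 1342, 1419 and 1484, and 1125, 1026 and 1042. All 24 arrays with OHT lay above all 12 arrays at 0 h, the highest of which was 397. With the control siRNAs E2F8 rose by 1.85 at 4 h (SE 0.127, adjusted p = 4.35e-15) and by 1.74 at 8 h (SE 0.127, adjusted p = 1.36e-14), or 3.60-fold and 3.35-fold. With the NFYB siRNAs it rose by 2.16 and 1.94 (SE 0.127 each, adjusted p = 4.91e-17 and 7.61e-16). By siRNA the 8 h change was 1.73 and 1.76 with the Dharmacon and Sigma controls and 2.08 and 1.80 with the Ambion and Dharmacon NFYB siRNAs (SE 0.142 each), a narrower spread than that of E2F2. Among the 12 condition means ordered by level, 2 of 11 neighbouring pairs did not overlap: the Sigma control at 4 h (1199.9) against the Dharmacon NFYB siRNA at 8 h (1064), and the lowest condition with OHT, the Dharmacon control at 8 h (997), against the highest at 0 h, the Sigma control (379). From 4 to 8 h the difference over both controls was -0.10 (95% interval -0.36 to 0.15), so that no further change was detectable in the pooled controls. The mean went from 1230 to 997 with the Dharmacon control and from 1199.9 to 1286 with the Sigma control. With the Ambion and Dharmacon NFYB siRNAs it went from 1573 to 1415 and from 1326 to 1064.

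**Figure D3:**
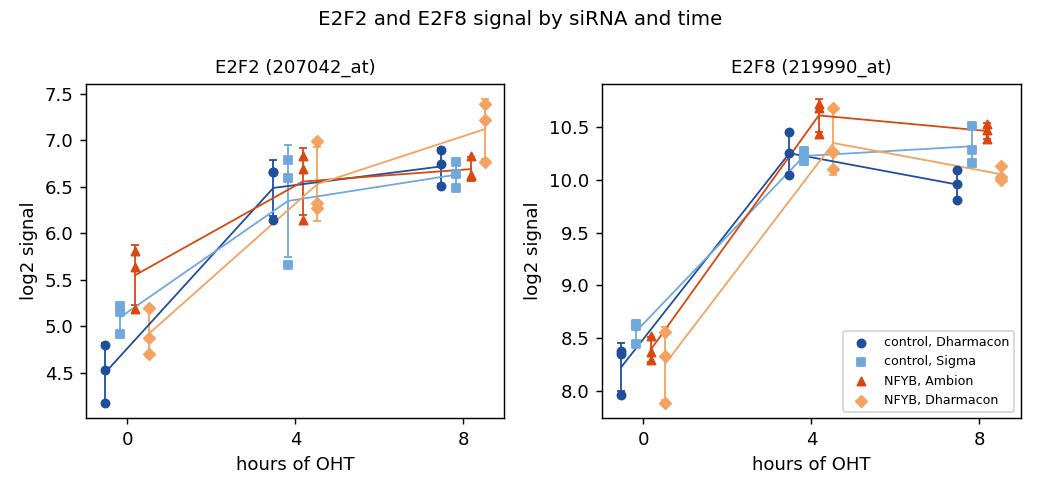
Log2 signal (y axis) of E2F2 and E2F8 against hours of OHT (x axis) by siRNA; points are arrays (3 per siRNA and time, shifted sideways for legibility), lines join the means and bars are SD. All E2F8 arrays at 4 and 8 h lie above all arrays at 0 h, and for E2F2 1 array at 0 h reaches the lowest array with OHT.

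Over the 36 arrays, which share the same 3 times, the log2 signals of E2F2 and E2F8 correlated at r = 0.855, as a description. The genes whose pattern was most like that of E2F8 were CEP76 (r = 0.984), NR4A2 (r = 0.983) and TOB1 (r = 0.981), and those most like E2F2 were CMC4 (r = 0.933), IL17RB (r = 0.928) and COMMD3 (r = 0.927). For the members that moved little with time the closest patterns were looser, with a first-ranked gene of MRPL34 for E2F1 (r = 0.695), TGM2 for E2F3 (r = 0.790), ARHGDIA for E2F4 (r = 0.604), CSNK1A1 for E2F5 (r = 0.792) and HSPA5 for E2F6 (r = 0.754).

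After NFYB knockdown a single E2F probe set was called, at 0 h, and none later. At 0 h 1 of the 11 probe sets was higher and none lower (3.58% of all probe sets called). At 4 h and at 8 h limma called 0 of 11 (2.93% and 4.65% of all probe sets called), and 1 probe set had an unadjusted p under 0.05 at each time. The methods' t-test after Benjamini-Hochberg adjustment called 0 at each of the 3 times, 0 h included, with 1 at 0 h, 1 at 4 h and 0 at 8 h at an unadjusted p under 0.05, and at 8 h no E2F probe set passed the methods' own limits on p and fold, which 1.01% of all probe sets passed. The median log2 difference of the 11 probe sets was 0.25, 0.13 and 0.12 at 0, 4 and 8 h, beside 0.00, -0.01 and -0.03 over all probe sets. Between the control siRNAs themselves (Sigma minus Dharmacon, over the 3 times) this median was 0.23, beside 0.06 over all probe sets. The medians pool both controls, and a shift of the family was not tested.

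The probe set called at 0 h was E2F3 203693_s_at. Its lowest, median and highest signals were 502, 535 and 559 with the control siRNAs and 553, 659 and 785 with the NFYB siRNAs, and 5 of the 6 knockdown arrays lay above all controls. It was higher by 0.30 on the log2 scale (SE 0.0775, adjusted p = 0.0215), or 1.23-fold, and by 0.43 with the Dharmacon siRNA alone against 0.17 with the Ambion siRNA alone (adjusted p = 0.35). Without Dharmacon NFYB replicate 2 the difference was 0.29 (adjusted p = 0.0514), and without replicate 3 it was 0.24 (adjusted p = 0.0856). The call was lost in 10 of 52 alternatives. Among these were either control siRNA alone, the methods' t-test and a fit of only the groups compared. At 4 and 8 h the differences were 0.13 and 0.16 (adjusted p = 0.49 and 0.28).

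E2F2 and E2F8, the members that rose with OHT, were not called between knockdown and control. For E2F8 the differences at 0, 4 and 8 h were -0.07, 0.24 and 0.12, with 95% intervals of -0.33 to 0.19, -0.02 to 0.50 and -0.14 to 0.38. For E2F2 they were 0.44 (adjusted p = 0.323), 0.13 and 0.23, with an 8 h interval of -0.20 to 0.67. E2F6 differed by -0.22 at 4 h (adjusted p = 0.0811), with 4 of 6 knockdown arrays below all controls, and became called without Ambion NFYB replicate 1 at 4 h (-0.25, adjusted p = 0.0458). It was also called with siRNA and time fitted as 12 groups (adjusted p = 0.00779) and with the Dharmacon NFYB siRNA alone (-0.31, adjusted p = 0.0195). E2F1 2028_s_at depended on which control siRNA it was set against: at 8 h the knockdown differed by 0.63 from the Dharmacon control alone (adjusted p = 0.00092) and by -0.09 from the Sigma control alone, with 0.27 over both (adjusted p = 0.354). With siRNA and time fitted as 12 groups the value over both controls was called (adjusted p = 0.022).

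**Figure D4:**
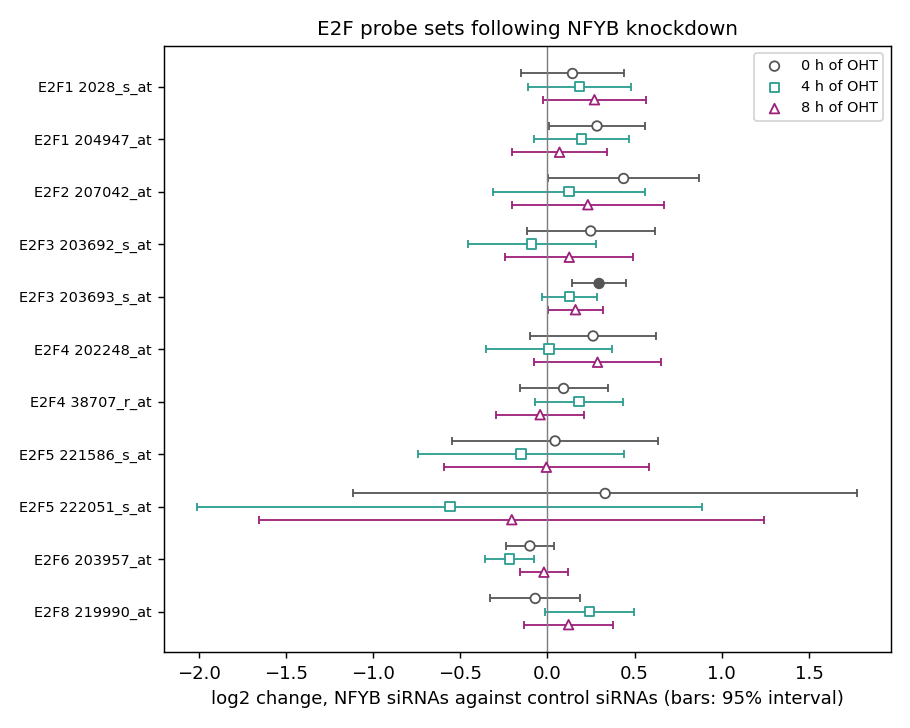
Log2 difference of each E2F probe set between the NFYB siRNAs and the control siRNAs (x axis) at 0 h (grey circles), 4 h (green squares) and 8 h (purple triangles) of OHT, 6 arrays per group; bars are 95% intervals and the filled symbol is called. Only E2F3 203693_s_at at 0 h, at 0.30, is called, and the dim E2F5 probe set 222051_s_at has the widest intervals.

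Whether NFYB knockdown altered the response to OHT was tested as the difference between the responses of the 2 arms. No E2F probe set was called by limma at 4 h (0.0135% of all probe sets called) or at 8 h (0.203% called), and 0 had an unadjusted p under 0.05 at either time; the methods' t-test does not give such a difference. For E2F8 the response with the NFYB siRNAs minus that with the control siRNAs was 0.31 at 4 h (95% interval -0.05 to 0.67) and 0.19 at 8 h (-0.17 to 0.55). For E2F2 it was -0.31 (-0.93 to 0.30) and -0.21 (-0.82 to 0.41). The 4 h intervals thus included differences of up to 0.67 for E2F8 and down to -0.93 for E2F2.

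SiRNAs of the same kind differed from each other for several members. Sigma control arrays were compared with Dharmacon control arrays over the 3 times (9 against 9), and 5 of the 11 E2F probe sets were higher and none lower with the Sigma siRNA (25.6% of all probe sets called). E2F1 2028_s_at gave 226 to 276 at 0 h, 262 to 296 at 4 h and 241 to 255 at 8 h with the Sigma siRNA. With the Dharmacon siRNA it gave 159 to 211, 182 to 212 and 138 to 169. The 2 control siRNAs did not overlap for this probe set, which was higher by 0.54 (SE 0.0658, adjusted p = 9.41e-08). E2F5 221586_s_at was higher by 0.92 (SE 0.177, adjusted p = 0.000132), with 122, 109 and 148 against 51.7, 42.4 and 41.4 at 0 h. E2F4 202248_at was higher by 0.43 (adjusted p = 0.00899), and E2F1 204947_at by 0.30 (adjusted p = 0.0254). The call of E2F1 204947_at was lost without Dharmacon replicate 2 at 0 h or replicate 1 at 8 h, or without Sigma replicate 3 at 4 h (0.24 to 0.27, adjusted p = 0.0575 to 0.0751). E2F8 was higher by 0.23 (adjusted p = 0.0407), a call that was lost without any 1 of 11 arrays (Dharmacon replicate 1 at 0 h and replicates 2 and 3 at 4 and 8 h; Sigma replicates 1 and 2 at 0 and 8 h and replicates 2 and 3 at 4 h; 0.18 to 0.23, adjusted p = 0.0507 to 0.113). E2F4 38707_r_at, at 0.20 (adjusted p = 0.132), became called without Sigma replicate 1 at 0 h or replicate 2 at 4 h (0.26 to 0.27, adjusted p = 0.0236 to 0.0389).

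Between the NFYB siRNAs (Dharmacon minus Ambion, 9 against 9), 1 E2F probe set was higher and 3 were lower (17.1% of all probe sets called). E2F3 203693_s_at was higher by 0.22 (SE 0.0467, adjusted p = 0.000702). E2F8 was lower by 0.27 on the log2 scale (adjusted p = 0.02), E2F1 2028_s_at by 0.20 (adjusted p = 0.0332) and E2F6 by 0.14 (adjusted p = 0.0317). The E2F8 call was lost without Dharmacon replicate 1 at 0 h or replicate 3 at 4 h (-0.23 to -0.21, adjusted p = 0.06 to 0.0649). The E2F1 call was lost without any 1 of 9 arrays (Ambion replicates 1 and 3 at 0 h, 2 at 4 h and 1 and 2 at 8 h; Dharmacon replicate 2 at 0 and 4 h and replicates 2 and 3 at 8 h; -0.20 to -0.16, adjusted p = 0.0502 to 0.0863). That of E2F6 was lost without any 1 of 8 (Ambion replicates 2 and 3 at 0 h, 1 and 3 at 4 h and 3 at 8 h; Dharmacon replicate 2 at 0 h and replicate 3 at 4 and 8 h; -0.13 to -0.10, adjusted p = 0.0596 to 0.1). NFYB itself was lower with the Dharmacon siRNA on all 3 of its probe sets, by 0.59 on 218127_at, by 0.72 on 218128_at and by 1.09 on 218129_s_at.

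Genes that work with the family, or answer to it, moved in both directions. In the control cells at 8 h, when 49.9% of all probe sets were called, 2 of the 5 DP partners and pocket proteins rose and 1 fell: TFDP1, the DP partner, rose by 0.81 (adjusted p = 2.53e-12), RB1, the retinoblastoma protein, rose by 0.89 (adjusted p = 7.06e-06), and RBL2, the pocket protein of the repressors, fell by 0.54 (adjusted p = 0.0254). Of 14 measured G1 cyclins, kinases and inhibitors 7 rose and 4 fell, led by the cyclins CCNE1 (2.90), CCND3 (2.15) and CCNE2 (3.27) and by the kinase inhibitor CDKN1A (1.63). Of the 3 measured genes of the MuvB and DREAM list RBBP4 (0.44) and MYBL2 (0.34) rose and LIN37 fell by 0.97. All 6 measured partners of E2F6 were called, 3 in each direction, with EZH2, a histone methyltransferase of polycomb, at 2.53, RYBP at 1.85, MAX at -0.89 and RING1 at -0.50. The list medians were -0.09, 0.90, 0.34 and 0.05, beside -0.10 over all probe sets.

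Known targets of the activators were taken as a list for DNA synthesis and a list for apoptosis. Here and in the lists above each gene was read on its brightest probe set. The shares called are over all probe sets, dim ones included, so the 2 are not alike. The lists were also chosen with earlier results of these data known, and enrichment was not tested. The list for DNA synthesis also held the transcription factor MYB and the cyclin CCNA2. Of its 21 measured genes 8 rose and 7 fell in the control cells at 8 h (median -0.01, 49.9% of all probe sets called). MYB rose by 4.57 and RRM2, a ribonucleotide reductase subunit, by 1.50. The primase PRIM1 fell by 1.02 and the helicase subunit MCM5 by 0.98. Of 7 measured targets of apoptosis 5 rose and 2 fell (median 3.11), with MAP3K5, a stress kinase, at 4.21, HRK, a BH3-only protein, at 3.65, the apoptosome component APAF1 at 3.11 and the caspase CASP8 at -2.35. After NFYB knockdown at 8 h, when 4.65% of all probe sets were called, 5 of the 21 targets of DNA synthesis were higher and none lower (median 0.07, beside -0.03 over all probe sets), led by the helicase subunit MCM3 (0.34, adjusted p = 0.000322), the replication factor GINS2 (0.47, adjusted p = 0.000414), PRIM1 (0.30, adjusted p = 0.00252) and MCM5 (0.27, adjusted p = 0.0172). At 0 h 3 of these targets were higher and 1 lower (3.58% of all probe sets called): MCM3 (0.34, adjusted p = 0.000313), MCM5 (0.25, adjusted p = 0.0361) and the replication licensing factor CDC6 (0.30, adjusted p = 0.0374) were higher, and RRM2 was lower by 0.55 on the log2 scale (adjusted p = 2.77e-05). In the other lists CCNE2, MAX and MAP3K5 were higher and CDKN1B, a kinase inhibitor, was lower at that time. At 4 h 4 targets of DNA synthesis were higher (MCM3, MCM5, PRIM1 and GINS2), the only listed genes called at that time (2.93% of all probe sets called). RRM2 was also the only listed gene whose response to OHT at 8 h differed between the arms (0.55, adjusted p = 0.0258). At 8 h the kinase CDK2 was lower by 0.26 on the log2 scale (adjusted p = 0.0464), as the only G1 gene called. Of the 21 genes of the remaining lists limma called 0, with 2 at an unadjusted p under 0.05, and the methods' t-test called 1 after adjustment.

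**Figure D5:**
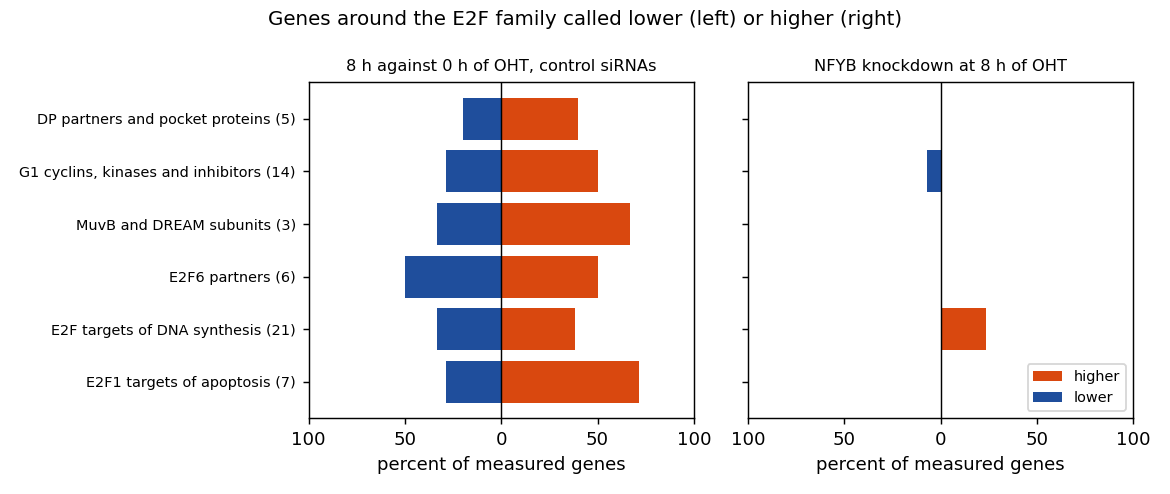
Percent of the measured genes of each list (number in brackets) called higher (orange, right) or lower (blue, left), for 8 against 0 h of OHT in control cells (left panel) and for NFYB knockdown at 8 h (right panel). The responses to OHT fill both directions in every list, with 5 of 7 targets of apoptosis higher, while knockdown shows 5 targets of DNA synthesis higher and 1 G1 gene lower.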

How the data were processed

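RNA of 36 cultures was hybridised to Affymetrix U133A 2.0 arrays. The authors computed probe set intensities (signal values) with the MAS5 algorithm in Expression Console (version not given in the sources used here), and the deposited signal table is on a linear scale with each array at a trimmed mean of 500. Detection calls were not used here. Groups were taken from the labels. Of the probe sets, 62 control probe sets were left out and 22215 were tested, of which 19064 named 1 gene, 1043 several and 2108 none. Values were taken to log2 without an offset and fitted in limma 3.58.1 (R 4.3.3) with a variance trend, over 6 groups (control or NFYB siRNA by time) or, to compare siRNAs of 1 kind, 12 groups, with Benjamini-Hochberg adjustment over all 22215 probe sets. The 95% intervals are not adjusted. The script was tested on simulated data. The number of arrays limits the precision. The 2 siRNAs of an arm were pooled as replicates of it, which p-values over 6 arrays assume. Every member probe set was named, with the 3 most correlated genes for each brightest probe set and at most 4 genes per pathway list by adjusted p, on the brightest probe set of each gene. Some listed genes were not analysed here. Members and lists were chosen with earlier results of these data known. Alternatives changed the log2 offset (16), the normalization, the filter on dim probe sets, the variance trend, the arrays fitted, the grouping, the block, the test and the arrays left out.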

Additional observations from a re-analysis of the deposited data

Results flagged for a closer look

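In each of 66 groups of 6 arrays (11 probe sets by arm and time), the array farthest from the others was compared with the range of its group. Of these groups 3 held an array set apart, where chance gives 3.3 at 1 in 20. E2F1 204947_at was lowest in Dharmacon control replicate 2 at 0 h (137, the nearest other array at 188 and the highest at 219), and the rise of this probe set at 8 h was not called without that array. E2F4 38707_r_at was highest in Dharmacon NFYB replicate 1 at 0 h (787, the nearest at 582 and the lowest at 514). The same probe set was highest in Dharmacon NFYB replicate 1 at 4 h (730.0, the nearest at 625 and the lowest at 569). What set these arrays apart was not tested.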

How the results depend on the processing

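The rises of E2F2 and E2F8 at 4 and 8 h were called under every alternative that gave a value, 50 for each response. E2F2 at 8 h ranged from 1.42 to 2.22 with the control siRNAs and from 1.14 to 2.20 with the NFYB siRNAs, and E2F8 from 1.61 to 1.83 and from 1.80 to 2.08. No called value changed its sign. Over all probe sets of the family, other settings lost 19 calls and gained 26, and leaving out arrays lost 70 and gained 18. Fits with siRNA and time as 12 groups called 4 probe sets for the NFYB siRNAs at 4 h in place of 2, 4 for the late step in place of 1, and 1 each for knockdown at 4 and 8 h in place of 0. For the late step 2 were called among the upper 60% of probe sets, 2 with siRNA as a random block and 0 with the Sigma control alone. For knockdown at 0 h, 0 were called with only the groups compared, with the methods' t-test, with the Ambion siRNA alone, and with the Dharmacon or the Sigma control alone. For knockdown at 4 and 8 h, 1 was called at each time with the Dharmacon NFYB siRNA alone and 1 with the Dharmacon control alone. With the Sigma control alone 2 were called at 8 h of OHT in place of 4, and with quantile normalization 2 between the NFYB siRNAs in place of 4. The cause of these shifts was not tested.

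Leaving out arrays or a replicate number gave 2 to 3 calls at 4 h and 2 to 5 at 8 h with the control siRNAs, 2 to 3 and 2 to 4 with the NFYB siRNAs, 0 to 2 for the late step, 0 to 1 for knockdown at 0 h and at 4 h, 0 for knockdown at 8 h and for both differences of responses, 2 to 5 between the control siRNAs and 1 to 4 between the NFYB siRNAs. Deviations of same-numbered arrays correlated at a median r of 0.0089 (198 pairs, -0.187 to 0.288, 29 over 0.1). For different-numbered arrays the median r was -0.0031 (396 pairs, -0.384 to 0.332, 39 over 0.1). Of the 36 arrays, 16 correlated best with their own number, and whether same-numbered arrays belong together was not tested. With the replicate number as a block the counts were 2 and 4 with the control siRNAs, 1 for the late step, 2 and 3 with the NFYB siRNAs, 1, 0 and 0 for knockdown, 0 and 0 for the differences, and 5 and 4 between siRNAs, as without it.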
